A study of Mus musculus with 6 samples.

Results

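The 10 genes described here belong to 2 complexes. Ift43, Ift122, Ift140, Wdr19, Wdr35 and Ttc21b encode the intraflagellar transport A complex. Dync2h1, Dync2li1, Wdr34 and Wdr60 encode the heavy, light intermediate and intermediate chains of the retrograde dynein motor, dynein-2. The light chains of dynein-2, among them Tctex1d2, are not members and are given separately. They were chosen by name from the known composition of the 2 complexes, and all 10 were measured, each by 1 probe set, among 19938 genes. The series used 6 Affymetrix whole-transcript arrays of the mouse ependymal layer, the ciliated epithelium that lines the brain ventricles. FoxJ1 null brains were sampled at postnatal days 1, 7 and 14, and wildtype brains at the same 3 ages, with 1 array for each genotype and age. All brains, null and wildtype, carried the FoxJ1-EGFP reporter, and the EGFP-positive domains were taken by laser capture. The reporter thus marked the captured areas in both genotypes, and these areas also gave signal for markers of other cell types (below). The labels do not give the kind of null allele, the sequence that drives the reporter, or how many animals went into each array. The p-values below reflect only how these 6 arrays vary, which may be technical in part.

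Cilia are built and maintained by trains of protein complexes that move along the axoneme. Kinesin-2 carries the trains, with intraflagellar transport B and A, from the base to the tip, and dynein-2 returns them with intraflagellar transport A as the main retrograde adaptor. Intraflagellar transport A also works with tubby-family adaptors to bring membrane receptors into the cilium. Both motile cilia, such as those of ependymal cells, and the single primary cilium of most other brain cells need this machinery. Foxj1 encodes a forkhead transcription factor required for motile cilia.

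The 6 arrays had median log2 levels between 7.72 and 7.81. Foxj1 itself had log2 levels of 6.89, 6.95 and 6.90 in null tissue at days 1, 7 and 14, against 7.68, 7.72 and 7.24 in wildtype tissue. Its mean difference was -0.63 ± 0.25 (SD over the 3 ages), which missed the threshold (limma, adjusted p = 0.0573). Ependymal markers with high levels included Vim (12.03 to 12.19 in null, 11.59 to 12.47 in wildtype) and Nnat (11.73 to 13.22 in null, 11.98 to 13.04 in wildtype), and both overlapped between genotypes. Of 12 ependymal markers, 11 had negative genotype differences and 2 were called lower, with a median of -0.27 and mean levels of 8.75 to 8.93 in null and 9.22 to 9.44 in wildtype tissue. Tmem212 (6.53 to 6.79 in null, 7.90 to 8.88 in wildtype), Ccdc153 (7.34 to 7.51 in null, 8.31 to 8.62 in wildtype), Rarres2, Mia and Foxj1 were below all wildtype arrays on every null array. The same held for 4.39% of all genes, and 0.667% of all genes were called lower. The series title says male mice, but Xist, the female-specific RNA of the inactive X chromosome, was at 12.35 on the null day 7 array and 12.40 on the wildtype day 1 array. On the other 4 arrays it lay between 5.37 and 5.83. The Y-linked gene Eif2s3y was at 4.61 on the null day 7 array and 4.53 on the wildtype day 1 array, against 10.33 to 10.72 on the other 4. Kdm5d and Uty, also Y-linked, showed the same split. By these genes, those 2 arrays read as female. The member median and Dynlrb2 are therefore also given without those 2 arrays, in a model with age as a linear term, since 4 arrays are too few for the 3-level age factor. At days 1 and 7 the null and wildtype arrays thus differed in Xist and Y-linked genes as well, in opposite directions. Within those pairs genotype and sex, as read from these genes, cannot be told apart. The age and slope comparisons below use the same arrays.

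No member of either complex was called lower or higher in FoxJ1 null tissue (0 of 10 in each direction, limma with Benjamini-Hochberg adjustment over all 19938 genes, threshold 0.05). Of all genes, 0.667% were called lower and 0.00502% higher. The mean difference, null minus wildtype on the log2 scale, was negative for all 10 members and ran from -0.31 to -0.08, with a median of -0.19 against -0.01 for all genes. A negative mean difference was found for 54.8% of all genes. At an unadjusted p under 0.05 there were 4 members, Ift122, Wdr19, Wdr35 and Dync2li1, all with negative differences, and 5.92% of all genes. In a captured tissue, fewer cells of a type and less RNA per cell cannot be told apart.

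**Figure D1:**
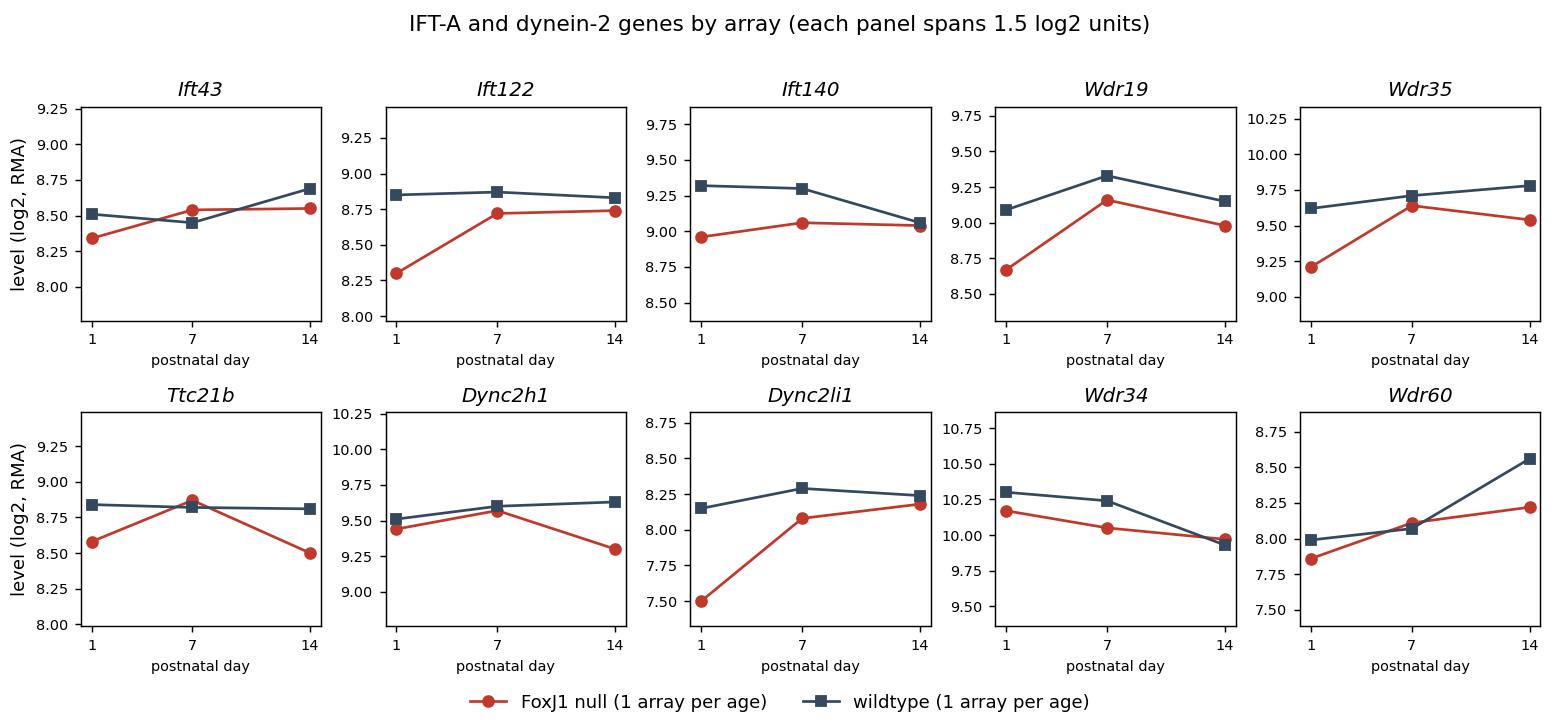
Log2 level of each of the 10 members (panels) by postnatal day (horizontal axis) on the FoxJ1 null and wildtype arrays, 1 point per array. Null day 1 is the lowest point in 7 of the 10 panels, and the null points lie wholly below the wildtype points only for Ift122 and, by 0.0011, Ift140.

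Ift122, Ift140 and Wdr19 encode large scaffold subunits that form the core of intraflagellar transport A. Ift122 had log2 levels of 8.30, 8.72 and 8.74 in null tissue at days 1, 7 and 14, against 8.85, 8.87 and 8.83 in wildtype tissue. All 3 null arrays were below all 3 wildtype arrays, with the widest gap at day 1. The mean difference was -0.27 ± 0.25 (SD, n = 3 ages), a 1.21-fold lower level, and was not called (limma, adjusted p = 0.838). Ift140 had levels of 8.96, 9.06 and 9.04 in null tissue, against 9.32, 9.30 and 9.06 in wildtype tissue. The groups did not overlap, but the highest null array and the lowest wildtype array differed by only 0.0011. The genotype difference of Ift140 was -0.36 on the day 1 pair of arrays, -0.24 on the day 7 pair and -0.02 on the day 14 pair. Its mean was -0.21 ± 0.17 (limma, adjusted p = 0.955). Wdr19 had levels of 8.67, 9.16 and 8.98 in null tissue, against 9.09, 9.33 and 9.15 in wildtype tissue. It was lower on the null array at each age, but the null day 7 array stood above the wildtype day 1 and day 14 arrays. The mean difference of -0.25 ± 0.15 was 1.19-fold lower and was not called (limma, adjusted p = 0.799). Non-overlap with null below wildtype held for 2 of the 10 members and for 4.39% of all genes.

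The promoters of Wdr19 and Ift140 are shown as examples. Wdr19 matches the X-box pair, a motif of the RFX factors, which act beside Foxj1 at ciliary genes. Ift140 matches only its half-site, as do Wdr35 and Dync2h1, where the match lies after the start. RefSeq promoter windows (assembly GRCm38.p6, 250 bases before to 50 after the start) were at hand for 8 of the 10 members and not for Ift122 or Dync2li1. Both strands were searched for the X-box pair, which is a left part GTNNCC followed after a gap of 1 to 3 bases by a right part spelled GGNNAC, for its half-site GTTGCC alone, and for the forkhead core GTAAACA. The searched half-site may itself lie within a pair. A right part that does not begin with GG was not counted, so the counts of pairs hold for this spelling only. The pair was found in 1 of 8 member windows, Wdr19, and in 3.49% of all 32851 windows. The half-site was found in 3 of 8, Ift140, Wdr35 and Dync2h1, and in 12.5% of all windows, and the forkhead core in 0 of 8 and in 3.65% of all windows. Among 122 windows of genes called lower in null tissue, 26.2% held the pair, 34.4% the half-site and 7.38% the forkhead core. A match describes the letters only and was not tested as a binding site. The 120 bases that end just before the start follow, both on the + strand, with the match in capitals. Wdr19 lies at chr5:65199576-65199695 and Ift140 at chr17:25015966-25016085, where the capitals are the half-site read on the opposite strand.
Wdr19: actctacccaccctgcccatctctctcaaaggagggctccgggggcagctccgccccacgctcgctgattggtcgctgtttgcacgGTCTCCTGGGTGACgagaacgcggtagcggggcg
Ift140: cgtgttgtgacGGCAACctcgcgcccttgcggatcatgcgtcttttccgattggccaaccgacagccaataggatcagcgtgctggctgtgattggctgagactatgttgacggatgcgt

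Wdr35, Ttc21b and Ift43 encode the peripheral subunits of the complex. Wdr35 had log2 levels of 9.21, 9.64 and 9.54 in null tissue at days 1, 7 and 14, against 9.62, 9.71 and 9.78 in wildtype tissue. It was lower on the null array at each age, but the null day 7 array stood just above the wildtype day 1 array. The mean difference was -0.24 ± 0.17 (SD, n = 3 ages), a 1.18-fold lower level (limma, adjusted p = 0.838). Ttc21b had levels of 8.58, 8.87 and 8.50 in null tissue, against 8.84, 8.82 and 8.81 in wildtype tissue. The 3 wildtype arrays lay within a narrow span, with an SD of 0.02, and the null arrays lay on both sides of it, with an SD of 0.19. Ift43 had levels of 8.34, 8.54 and 8.55 in null tissue, against 8.51, 8.45 and 8.69 in wildtype tissue, and these groups overlapped too. The mean differences were -0.17 ± 0.20 for Ttc21b and -0.08 ± 0.14 for Ift43, the smallest of the 10, and neither was called (limma, adjusted p = 1.00 for each).

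Among the dynein-2 subunits, Dync2h1 encodes the heavy chain with the motor domain. Its log2 levels were 9.44, 9.57 and 9.30 in null tissue at days 1, 7 and 14, against 9.51, 9.60 and 9.63 in wildtype tissue. The null array was lower at each age, by -0.07, -0.02 and -0.33, and the groups overlapped. Dync2li1, the light intermediate chain that stabilises the heavy chain, had levels of 7.50, 8.08 and 8.18 in null tissue, against 8.15, 8.29 and 8.24 in wildtype tissue. The null day 1 array alone was far below the others, and null minus wildtype gave -0.65 at day 1, then -0.21 at day 7 and -0.05 at day 14. The mean, -0.31 ± 0.31 (SD, n = 3 ages) or 1.24-fold lower, was the most negative of the 10 members and was not called (limma, adjusted p = 0.803).

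Wdr34 and Wdr60 encode the intermediate chains, which carry the light chains. Wdr34 had levels of 10.17, 10.05 and 9.97 in null tissue, against 10.30, 10.24 and 9.93 in wildtype tissue, so that its lowest array was a wildtype one. Wdr60 had levels of 7.86, 8.11 and 8.22 in null tissue, against 7.99, 8.07 and 8.56 in wildtype tissue, with the null array lower at days 1 and 14 and higher at day 7. The mean differences were -0.09 ± 0.12 for Wdr34, -0.14 ± 0.20 for Wdr60 and -0.14 ± 0.16 for Dync2h1 (limma, adjusted p = 1.00 for each).

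**Figure D2:**
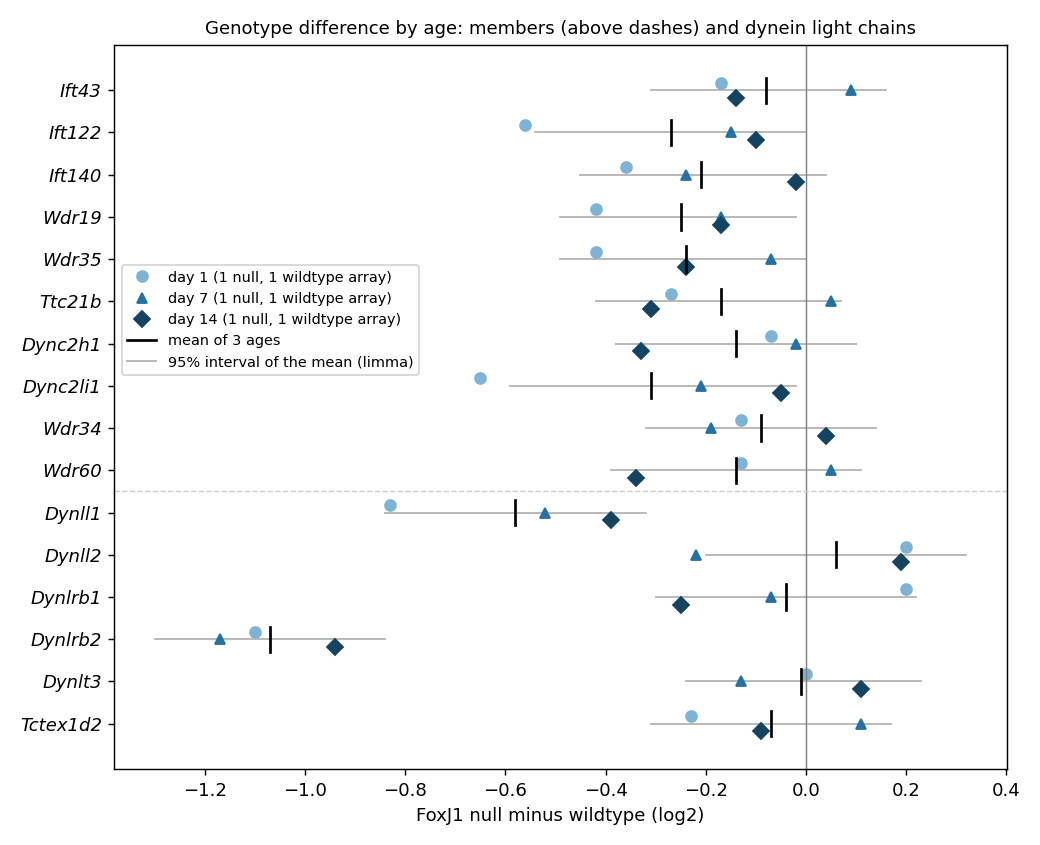
Difference in log2 level, FoxJ1 null minus wildtype, for the 10 members and the dynein light chains. Points are single ages (1 pair of arrays each), vertical ticks the mean over the 3 ages, and horizontal lines its 95% interval from limma. The member means lie between -0.31 and -0.08, and the interval of Dynlrb2 lies below all of theirs.

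No member's 95% interval reached a 2-fold decrease, which is -1 on this scale. The lowest bound was -0.59, for Dync2li1, and the interval of Wdr19 ran from -0.49 to -0.02. By age, the null array was the lower one for 10 of 10 members at day 1, 7 of 10 at day 7 and 9 of 10 at day 14, where the same held for 44.5%, 63.4% and 55.4% of all genes. Day 1 gave a member median of -0.32, day 7 one of -0.11 and day 14 one of -0.16, against 0.03, -0.06 and -0.02 for all genes. Only at day 14 were both arrays low in Xist. A lower level on the null array at all 3 ages was found for 6 members (Ift122, Ift140, Wdr19, Wdr35, Dync2h1 and Dync2li1) and for 15.9% of all genes. Null day 1 was the lowest array of 7 members and of 19.0% of all genes. Without the day 1 arrays the median over the members was -0.13, and without the null day 7 and wildtype day 1 arrays, with age made linear, it was -0.26, with 0 of 10 called either way.

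Markers of other cell types differed between the null and wildtype arrays in both directions. All 10 measured choroid plexus markers were lower on the null array at each age and 3 were called lower. Their mean level was 8.21 to 8.72 on the null arrays and 9.05 to 9.21 on the wildtype arrays. At day 1 their median difference was -0.86, at day 7 it was -0.17, and day 14 gave -0.81. For markers of radial glia and proliferation, day 1 gave a median difference of -0.65, day 7 one of -0.09 and day 14 one of -0.08, with 0 of 9 called and mean levels of 8.54 to 9.37 in null and 8.55 to 9.89 in wildtype tissue. Median differences of -0.27 for 8 astrocyte markers, -0.20 for 9 oligodendrocyte markers, -0.24 for 10 neuroblast and neuron markers and -0.14 for 6 endothelial markers came with 0 called in each list. Mean levels of the astrocyte markers were 10.15 to 11.73 in null and 10.56 to 11.72 in wildtype tissue. Those of the neuroblast and neuron markers were 11.37 to 11.82 in null and 11.61 to 11.84 in wildtype tissue. Both lists lay above the ependymal markers, at 8.75 to 8.93 in null and 9.22 to 9.44 in wildtype tissue. Microglia markers ran the other way, with positive differences for 7 of 8, 0 called and a median of 0.21, which was 0.67 on the day 14 pair of arrays. The arrays carry no detection call, so no marker can be said to be at 0. The part of these cells in the member values was not tested.

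Dynein-2 also uses light chains, some of which it shares with other dyneins, and 6 of 10 listed light chain genes were measured. Of these 6, 1 was called lower and 0 higher in null tissue, where 0.667% of all genes were called lower. The list median was -0.06. The roadblock light chain gene Dynlrb1 had mean levels of 12.52 in null and 12.57 in wildtype tissue. Its difference of -0.04 ± 0.23 (SD over the 3 ages) was not called. The dimmer roadblock gene, Dynlrb2, was the one called lower. Its log2 levels were 6.40, 6.63 and 6.29 in null tissue at days 1, 7 and 14, against 7.51, 7.80 and 7.23 in wildtype tissue. The groups were 0.603 apart at their nearest arrays, and the difference was close to the same at each age, with -1.10, -1.17 and -0.94. The mean of -1.07 ± 0.12 (SD, n = 3 ages) was 2.10-fold lower, with a 95% interval of -1.30 to -0.84 (limma, adjusted p = 0.000995). That interval did not overlap the interval of any member, although the difference between genes was not itself tested. Without the 2 arrays with high Xist, and with age made linear, it was -1.24 (limma, adjusted p = 0.0468). With no age term in the model the call was lost (limma, adjusted p = 0.0822), and the gene is dim enough that the filter on low levels removes it.

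Dynll1, a light chain shared by dynein-1, dynein-2 and axonemal dyneins, had levels of 11.35, 11.87 and 11.94 in null tissue, against 12.18, 12.39 and 12.32 in wildtype tissue. The groups did not overlap, but the mean of -0.58 ± 0.23 (SD, n = 3 ages) missed the threshold (limma, adjusted p = 0.0781), and it passed only without the day 14 arrays (limma, adjusted p = 0.0268). Tctex1d2, a light chain of dynein-2, had a mean difference of -0.07 ± 0.17, and Dynll2 one of 0.06 ± 0.24. Dynlrb2 and Dynll1 were both in the authors' deposited table, which holds 52 of the 35557 probe sets, and 0 of the 10 members were. That table was made from these same arrays, so a place in it is not separate support. It is also so short that the absence of the members says little about them. The Dynlrb2 promoter is shown beside those above because it belongs to the called light chain and holds the half-site, in capitals, on the + strand at chr8:116504895-116505014. The bases that follow it, tagcaac, were not counted as a right part, because the searched spelling begins with GG. Whether they complete a pair was not tested.
Dynlrb2: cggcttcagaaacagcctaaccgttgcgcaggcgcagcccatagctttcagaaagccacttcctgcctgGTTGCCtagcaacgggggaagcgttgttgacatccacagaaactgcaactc

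The other transport machinery was read from lists of known subunits. Intraflagellar transport B, the anterograde complex, had 0 of 17 genes called, with 16 negative differences and a median of -0.20, against -0.23 for the 6 intraflagellar transport A genes and -0.14 for the 4 dynein-2 genes. Its most negative members were Ift80, a subunit of the peripheral B complex, at -0.55 ± 0.61, Ift172 at -0.46 ± 0.42 and Ift81, part of the tubulin-binding module, at -0.42 ± 0.38 (SD over ages, limma, adjusted p = 0.585, 0.539 and 0.558). Their wide SDs came from day 1: Ift80 had 7.93, 9.25 and 8.94 in null tissue, against 9.18, 9.36 and 9.24 in wildtype tissue. The mean level of the B genes was 8.75 on the null day 1 array and 9.14 on the wildtype day 1 array, and it was 9.05 in null and 9.15 in wildtype tissue at day 7, and 8.97 in null and 9.14 in wildtype tissue at day 14. The A genes were at 8.67 in null and 9.04 in wildtype tissue at day 1. They were at 9.00 in null and 9.08 in wildtype tissue at day 7, and at 8.89 in null and 9.05 in wildtype tissue at day 14.

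Kinesin-2 had 0 of 5 genes called and a median of 0.03, with Kif17 at 0.13, the adaptor subunit gene Kifap3 at -0.12 and the motor subunit gene Kif3a at -0.05. The tubby-family adaptors and receptor clients had 0 of 8 called and a median of 0.00. Among them Tub was at 0.21, Tulp3, which links the A complex to receptors, at -0.19 and the receptor gene Gpr161 at 0.10. Cytoplasmic dynein-1, which moves cargo outside cilia, had 0 of 5 called and a median of -0.07, with Dync1i1 at -0.23, Dync1i2 at -0.15 and Dync1li1 at 0.09.

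The structural genes of the motile axoneme gave a different picture on the same arrays. Of 18 listed genes, 13 were called lower and 0 higher, with a median difference of -0.97. The authors' deposited table contains 7 of these axoneme genes and was made from these arrays, so the count is not independent of that choice. Dnah12, an axonemal dynein heavy chain, had levels of 6.22, 6.25 and 6.27 in null tissue, against 8.56, 8.41 and 8.56 in wildtype tissue. Its difference was -2.26 ± 0.09 (SD over ages, limma, adjusted p = 1.56e-05). The adenylate kinase gene Ak7 differed by -1.99 ± 0.29 and the radial spoke gene Rsph4a by -1.93 ± 0.18 (limma, adjusted p = 0.000113 and 6.76e-05).

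**Figure D3:**
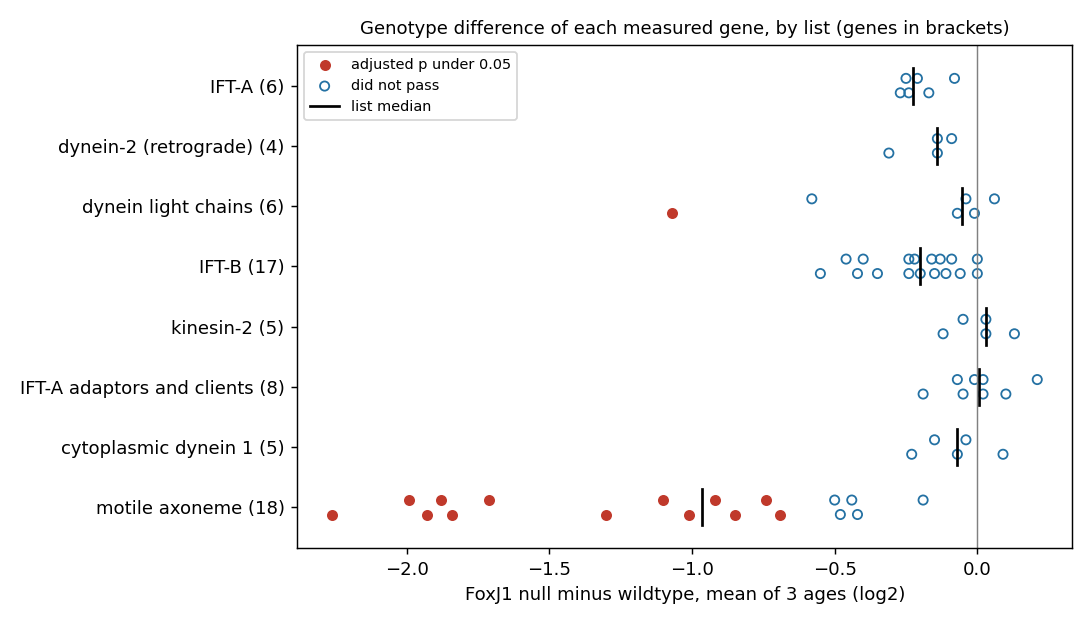
Difference in log2 level, FoxJ1 null minus wildtype, for each measured gene of the intraflagellar transport, motor and axoneme lists. Filled points passed the threshold, open points did not, and ticks mark list medians. The A complex and dynein-2 medians are -0.23 and -0.14, and the motile axoneme median is -0.97.

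Age was compared over both genotypes, day 14 minus day 1, with 2 arrays at each age. No member was called (0 of 10 in either direction), where 7.50% of all genes were called higher and 6.29% lower at day 14. The differences ran from -0.29 to 0.47 with a median of 0.19, against -0.01 for all genes, and 6 of 10 members had positive ones, as did 47.5% of all genes. Day 14 was above day 1 in both genotypes for 5 members (Ift43, Wdr19, Wdr35, Dync2li1 and Wdr60) and for 32.1% of all genes. At an unadjusted p under 0.05 there were 3 members, Dync2li1, Wdr34 and Wdr60, and 27.2% of all genes.

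Wdr60 lay nearest to the threshold. Its level at day 14 exceeded that at day 1 by 0.36 in null tissue and by 0.57 in wildtype tissue. The difference of 0.47 (95% interval 0.16 to 0.77), a 1.38-fold higher level, just missed the threshold (limma, adjusted p = 0.05004) and passed it in 6 of 14 alternatives, with adjusted p from 0.0353 to 0.443. Dync2li1 differed by 0.68 in null tissue and by 0.08 in wildtype tissue, with a mean of 0.38 and an interval of 0.03 to 0.73 (limma, adjusted p = 0.149). Without the wildtype day 1 array its difference was 0.64 and passed (limma, adjusted p = 0.0213), and without the null day 1 array it was 0.12 (adjusted p = 0.81). Wdr34, the other intermediate chain gene, ran the opposite way, at -0.20 in null and -0.37 in wildtype tissue, with a mean of -0.29 (limma, adjusted p = 0.179). In the A complex, day 14 minus day 1 was 0.44 in null and -0.02 in wildtype tissue for Ift122, and 0.08 in null and -0.26 in wildtype tissue for Ift140. Wdr35 had 0.33 in null and 0.16 in wildtype tissue, and Wdr19 had 0.31 in null and 0.05 in wildtype tissue. Ift43 had 0.21 in null and 0.18 in wildtype tissue, while Ttc21b was at -0.07 in null and -0.04 in wildtype tissue. Dync2h1 had -0.14 in null and 0.12 in wildtype tissue.

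Between day 7 and day 1, 0 of 10 members were called, where 0.0552% of all genes were called higher and 0.00502% lower at day 7. Positive differences were found for 9 of 10 members and for 39.7% of all genes, with a member median of 0.15 against -0.04 for all genes. Wdr19 had 0.36, Dync2li1 0.36 and Wdr35 0.26, and Wdr34 alone was negative, at -0.09. At an unadjusted p under 0.05 there were 2 members, Wdr19 and Dync2li1 (limma, adjusted p = 0.388 and 0.47), and 10.6% of all genes. The 2 age comparisons share the day 1 arrays, and null day 1 was the lowest array of most members.

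**Figure D4:**
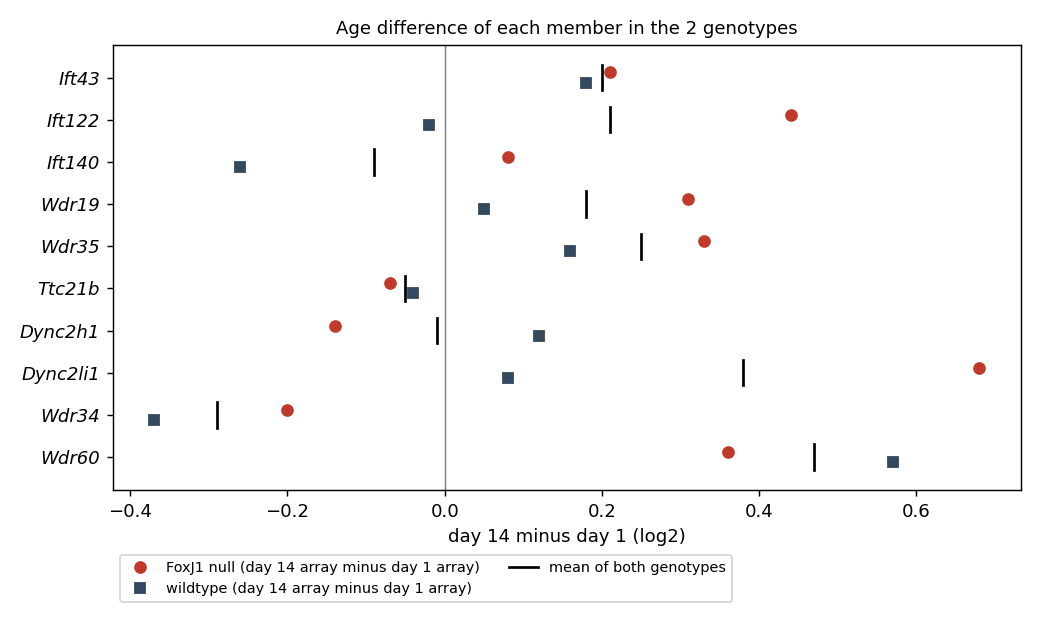
Difference in log2 level, day 14 minus day 1, for the 10 members in FoxJ1 null tissue and in wildtype tissue (1 pair of arrays each). Ticks mark the mean of both genotypes. Wdr60 is positive in both genotypes, at 0.36 in null and 0.57 in wildtype tissue, and Dync2li1 is at 0.68 in null and 0.08 in wildtype tissue.

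Several marker lists moved with age on these arrays. Calls are for day 14 minus day 1 at the 0.05 threshold, which 7.50% of all genes passed as higher and 6.29% as lower. Oligodendrocyte markers were called higher for 7 of 9 genes, with 9 positive differences and a median of 2.98. Their mean levels were 8.24 to 10.63 in null and 8.35 to 10.87 in wildtype tissue. Astrocyte markers were called higher for 7 of 8, with 8 positive differences and a median of 1.20. Their mean levels were 10.15 to 11.73 in null and 10.56 to 11.72 in wildtype tissue. Microglia markers were called higher for 6 of 8, with 8 positive differences and a median of 0.65. They had mean levels of 8.12 to 9.18 in null and 8.19 to 8.59 in wildtype tissue. Markers of radial glia and proliferation were called lower for 6 of 9, with 9 negative differences and a median of -1.35. Neuroblast and neuron markers were called lower for 5 and higher for 3 of 10, with 6 negative and 4 positive differences. Their mean levels were 11.37 to 11.82 in null and 11.61 to 11.84 in wildtype tissue. Of the ependymal markers 3 of 12 were called lower and 2 higher, with 5 negative and 7 positive differences and a median of 0.12. Choroid plexus markers had 1 of 10 called, lower, and endothelial markers 0 of 6, with medians of 0.11 and 0.08. The part of these cells in the age values of the members was not tested.

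Whether the genotype difference itself changed with age was tested as a difference in slope, given as a log2 total over the 13 days. No member was called (limma, adjusted p = 1.00 for each), and 0% of all genes were called. At an unadjusted p under 0.05 there were 0 members and 2.99% of all genes. Slope differences were positive for 7 members and ran from -0.27 for Dync2h1 to 0.59 for Dync2li1, with a median of 0.17 against -0.05 for all genes. The interval of Dync2li1 ran from -0.09 to 1.27 and that of Ift122, at 0.45, from -0.20 to 1.10. Standard errors of the members were 0.27 to 0.34, so differences of the size seen were not detectable with 6 arrays.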

How the data were processed

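The values used were the log2 levels of 35557 probe sets on 6 arrays, which the authors deposited after RMA, per the submitters' processing notes; software, version and genome build are not given in the sources used here. A second deposited table gives linear intensity for 52 probe sets chosen by the authors, which matched the antilog of the log2 table to a relative gap of 3.4e-06. Tissue was frozen and laser captured, and RNA amplified before labelling, per the labels' protocols. The probe table named 1 symbol for 21789 probe sets, several for 1621 and none for 12147; RefSeq changed 0 symbols. Each gene was represented by its brightest single-symbol probe set (19938 genes, no dim filter).

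Tests used limma 3.58.1 in R 4.3.3: lmFit and eBayes with terms for genotype and for age (a factor of 3 levels), which left 2 residual beside 7.51 prior degrees of freedom. The age factor pairs the arrays of an age. A second model had day as a number and its product with genotype. P-values are 2-sided, adjusted by Benjamini-Hochberg over all genes, with a threshold of 0.05; intervals are 95%. Every member was named, and of each related list up to 3 genes with the largest genotype and age differences. The members and lists were chosen with earlier results of these data known. Code was tested on simulated data. Alternatives varied normalization, probe set choice, a filter on the dimmest genes, prior, model terms and arrays.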

Additional observations from a re-analysis of the deposited data

How the results depend on the processing

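The number of arrays limits precision: 1 per genotype and age, and 2 residual degrees of freedom. For genotype, 0 of 10 members were called in all 13 alternatives, and each member kept its negative difference. The member median ran from -0.26 to -0.13. For day 14 against day 1, 1 member was called with the mean of a gene's probe sets, with dim genes left out, with an intensity trend and with a robust prior, in each case Wdr60, and leaving out 1 array gave 0 to 1. The cause was not tested.

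Some values changed sign when arrays were left out. Among them was the most negative member slope, that of Dync2h1, at -0.27 over all arrays. Day 14 minus day 1 of Ift122, at 0.21 over all arrays, also changed sign. Leaving out both arrays of 1 age gave lowest and highest values, for genotype, of -0.01 and 0.17 (Gpr161), -0.16 and 0.01 (Tctex1d2), -0.09 and 0.01 (Kif3a). Leaving out 1 array gave, for day 14 minus day 1, -0.01 and 0.43 (Ift122), -0.15 and 0.13 (Dync2h1), -0.23 and 0.05 (Ift140), -0.15 and 0.04 (Ttc21b); for day 7 minus day 1, -0.08 and 0.15 (Ift140), -0.05 and 0.20 (Ift43), -0.03 and 0.30 (Ttc21b); and for the slope, -0.24 and 0.33 (Ift43), -0.38 and 1.01 (Wdr19), -0.35 and 0.78 (Wdr35), -0.64 and 0.67 (Ttc21b), -0.63 and 0.18 (Dync2h1), -0.06 and 0.38 (Wdr34), -0.56 and 0.18 (Wdr60). Without the 2 arrays with high Xist and with age linear, the genotype value of Gpr161 was -0.06 and that of Kif3a -0.20, and the slope of Ift43 was -0.01 after quantile normalization and that of Ttc21b 0.06 on log2 day. Over all genes, genotype calls numbered 134, against 61 without dim genes, 45 without the age term and 66 without the 2 arrays with high Xist and with age linear. Day 14 calls numbered 2751, against 1739 without null day 1 and 1344 without null day 14. Day 7 calls numbered 12, against 55 with median centring, 0 without a genotype term and 0 to 456 with 1 array left out. Slope calls numbered 0, against 9 without null day 14. Dropping the pairing by age removed the call of Dynlrb2 (limma, adjusted p = 0.0822).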

Other observations

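Among the listed adaptors and clients of intraflagellar transport A, 4 genes for ciliary membrane proteins were called with age. Gpr161, a ciliary receptor that restrains hedgehog signalling, fell, with log2 levels of 10.11, 9.48 and 8.55 in null tissue at days 1, 7 and 14 and 9.78, 9.46 and 8.58 in wildtype tissue. Its day 14 minus day 1 difference was -1.38 (95% interval -1.69 to -1.08, limma, adjusted p = 0.000326), and leaving out any 1 array gave an adjusted p of at most 0.000356. Smo, the hedgehog signal transducer of the cilium, fell by 0.50 on the log2 scale (limma, adjusted p = 0.0267). Mchr1 and Sstr3, receptors of neuronal primary cilia, rose by 0.50 and 0.49 (limma, adjusted p = 0.0278 and 0.0398). These were the 4 genes called among 8 adaptors and clients, where 7.50% of all genes were called higher and 6.29% lower. Sstr3 was named after its value was seen. Smo and Sstr3 missed the threshold without any 1 of the 4 day 1 and day 14 arrays (adjusted p up to 0.233 and 0.406), Sstr3 also with median centring (adjusted p = 0.051), and Mchr1 without null day 1, null day 14 or wildtype day 14 (up to 0.316).

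Of the light chains, Dynlt3 rose, at 9.29, 9.69 and 10.22 in null tissue and 9.29, 9.82 and 10.11 in wildtype tissue. The difference of 0.88 (limma, adjusted p = 0.00217) passed without any 1 array (adjusted p up to 0.0156), and the genotype difference of Dynlt3 was -0.01 ± 0.12 (SD over ages). Ift22, a small GTPase of the B complex, rose by 0.57 and the kinesin-2 motor gene Kif3b fell by 0.48 (limma, adjusted p = 0.0328 and 0.0452). Both missed the threshold without null day 1 or null day 14 (adjusted p up to 0.3 for Ift22 and 0.27 for Kif3b), and Kif3b also without wildtype day 14. With all arrays kept, Ift22 missed it with no genotype term (limma, adjusted p = 0.148), and Kif3b with median centring (adjusted p = 0.052) and with an intensity trend (adjusted p = 0.0553). Dync1i1, an intermediate chain of dynein-1, rose by 0.68 (limma, adjusted p = 0.0103) and missed it without wildtype day 1 or day 14 (adjusted p up to 0.109).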
